A study of Mus musculus with 16 samples.

Results

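Crem, Pde4b, Pde4d, Pde10a, Sik1 and Ppargc1a are genes known to be induced by the second messenger cAMP. Their levels were followed on 16 arrays of R7T1 cells, which are cultured mouse beta cells. The 6 genes were chosen by name out of 18193 genes with a probe set on the array, and each was read from its probe set with the highest mean log2 intensity. Their choice as cAMP-induced genes rested on earlier results from these arrays, so every exendin-4 value of a member below is a description and carries no test. Of the 6 genes, 5 reached the filter level of log2 4 (an intensity of 16) on at least 2 arrays and entered the fit over 10610 genes. Sik1 did not.

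Cells received DMSO as the vehicle, BayK8644 (entered in the labels as BayK8644(2a), with no word on what 2a stands for), exendin-4, or these 2 agents in combination. A single array was run for every treatment after 0.5, 2, 6 and 24 h. BayK8644 is a dihydropyridine agonist of L-type calcium channels, and exendin-4 is a peptide agonist of GLP-1 receptors. Doses were not stated, nor whether the cultures were separate. No treatment had a replicate array at a time, so in the fit by time the error is the departure from added effects of the agents. The p-values at single times reflect that departure, and the scatter in it may be technical. All 9 beta-cell markers analysed passed the filter, with Ins2 between 15.60 and 15.79 and Pdx1 between 13.22 and 13.43. None of the 7 mesenchymal, endothelial and leukocyte markers passed the filter, while 3 of 5 alpha, delta and PP cell markers and 2 of 5 acinar and duct cell markers did. Glp1r, the receptor gene of exendin-4, lay between 2.04 and 2.08 on its single probe set, near the floor of the method. In bulk RNA, fewer cells of a type and less RNA per cell cannot be told apart.

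GLP-1 receptors couple to adenylyl cyclase, and the cAMP that it makes activates protein kinase A, which phosphorylates the transcription factor CREB. CREB and its CRTC coactivators then switch on genes that include brakes on the same pathway. Phosphodiesterases of the PDE4 family and PDE10A degrade cAMP, a short product of Crem called ICER occupies CREB sites without activating them, and SIK1 phosphorylates CRTC proteins and keeps them out of the nucleus. Ppargc1a encodes PGC-1 alpha, a coactivator of mitochondrial and gluconeogenic genes whose own promoter responds to CREB.

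Of the members' promoters at hand, 1 of Ppargc1a and 1 of the 4 of Pde4b are shown because they hold the short core of a CREB site. They are the 250 bases before an annotated start, from RefSeq on GRCm38.p6, read 5′ to 3′ on the gene's strand. Capitals mark CGTCA, the reverse complement of the short CREB core TGACG.

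Ppargc1a, chr5:51567726-51567975, minus strand: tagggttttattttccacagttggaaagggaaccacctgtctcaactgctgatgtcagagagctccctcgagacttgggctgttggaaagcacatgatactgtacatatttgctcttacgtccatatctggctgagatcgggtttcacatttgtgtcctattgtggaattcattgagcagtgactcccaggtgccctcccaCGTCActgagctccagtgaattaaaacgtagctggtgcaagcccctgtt
Pde4b, chr4:102421305-102421554, plus strand: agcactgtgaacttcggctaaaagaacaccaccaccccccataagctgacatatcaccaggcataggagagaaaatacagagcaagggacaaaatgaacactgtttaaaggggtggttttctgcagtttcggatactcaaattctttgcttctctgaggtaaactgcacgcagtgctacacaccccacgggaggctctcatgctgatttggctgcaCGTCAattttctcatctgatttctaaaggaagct

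The marked letters lie 49 to 45 bases before the start in Ppargc1a and 34 to 30 bases before it in Pde4b. For 4 of the members 8 promoters were read here (4 of Pde4b, 1 of Pde4d, 2 of Pde10a and 1 of Ppargc1a). Promoters of Crem and Sik1 were not read, so the counts below say nothing about them. TGACG was found on either strand in these 2 of the 8, and in 17.8% of 32851 mouse promoters over the same length. The full palindrome TGACGTCA, which contains TGACG, was in none of the 8 and in 1.55% of all promoters. A match is a run of letters and not a measured binding site, and the probe sets do not say from which start a transcript came.

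**Figure D1:**
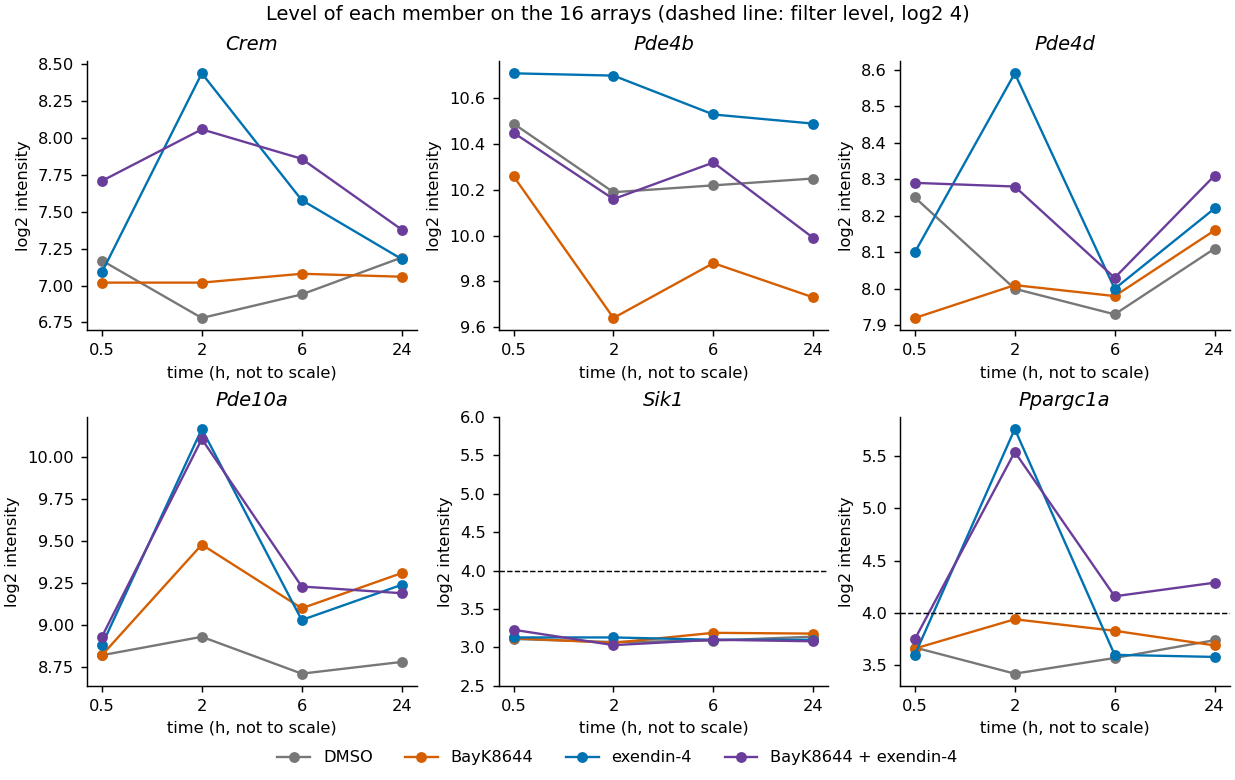
Log2 intensity of the 6 genes (1 panel each, with its own scale) at 0.5, 2, 6 and 24 h on the 16 arrays, 1 point per array and 1 line per treatment. Crem, Pde10a and Ppargc1a peaked at 2 h on the arrays with exendin-4, Pde4b was lowest with BayK8644 at every time, and Sik1 stayed between 3.03 and 3.23, below the dashed filter level.

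Crem was higher at 2 and 6 h on both arrays that held exendin-4 than on both that did not. On DMSO its log2 level was 7.17, 6.78, 6.94 and 7.19 at 0.5, 2, 6 and 24 h. On BayK8644 it was 7.02, 7.02, 7.08 and 7.06, a range of 0.06. With exendin-4 it was 7.09, 8.44, 7.58 and 7.18, so the high arrays were those of 2 and 6 h. With both agents it was 7.71, 8.06, 7.86 and 7.38, above the DMSO array of the same time throughout. The groups with and without exendin-4 overlapped at 0.5 and 24 h.

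At each time the 2 arrays with exendin-4 were set against the 2 without it, with the effects of the agents assumed to add up. The Crem difference was 1.35 ± 0.20 at 2 h (log2, SE, 2.55-fold) and 0.71 ± 0.20 at 6 h (1.63-fold). It was 0.30 ± 0.20 at 0.5 h and 0.16 ± 0.20 at 24 h. In order of size, the Crem difference was the 6th largest rise of 10610 at 2 h and the 17th at 6 h. The DMSO array of 2 h was the lowest of all 16 for Crem, and without it the difference at 2 h was 1.04, against 1.66 without the combination array of that time. At 0.5 h the value rested on the combination: exendin-4 alone was 0.08 below DMSO on the log2 scale (a difference of -0.08), and the combination was 0.68 above BayK8644.

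Pde4b, a cAMP-specific phosphodiesterase gene, differed in opposite directions with the 2 agents. Its log2 level on DMSO was 10.49, 10.19, 10.22 and 10.25 at 0.5, 2, 6 and 24 h. With exendin-4 it was 10.71, 10.70, 10.53 and 10.49, the highest of the 4 treatments at every time. With BayK8644 it was 10.26, 9.64, 9.88 and 9.73, the lowest at every time. With both agents it was 10.45, 10.16, 10.32 and 9.99, between the values for the single agents at every time.

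The exendin-4 difference of Pde4b was 0.20 ± 0.07 at 0.5 h, 0.51 ± 0.07 at 2 h, 0.37 ± 0.07 at 6 h and 0.25 ± 0.07 at 24 h (SE). It was above 0 in 8 of 8 pairs of arrays that differed only in exendin-4. Its size with and without BayK8644 was close: 0.52 and 0.51 at 2 h, and 0.26 and 0.24 at 24 h. Relative to DMSO, the combination stood at -0.04, -0.03, 0.10 and -0.25 at the 4 times, so on the combination arrays of 0.5 to 6 h Pde4b lay near the vehicle level.

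Pde4d, a second gene of the PDE4 family, varied least of the 5 genes that passed the filter, over a range of 0.68 on all arrays. Its log2 level was 8.25, 8.00, 7.93 and 8.11 on DMSO and 7.92, 8.01, 7.98 and 8.16 on BayK8644. It was 8.10, 8.59, 8.00 and 8.22 with exendin-4, and 8.29, 8.28, 8.03 and 8.31 with both agents. The array with exendin-4 alone at 2 h was the highest of the 16. The exendin-4 difference was 0.43 ± 0.14 at 2 h (1.35-fold) and between 0.06 and 0.13 at the other times. At 0.5 h the value of 0.11 became 0.37 without the DMSO or exendin-4 array of that time and -0.15 without the BayK8644 or combination array. Without the DMSO or exendin-4 array of 2 h it was 0.27, and without the BayK8644 array of that time 0.59.

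Pde10a, whose enzyme degrades both cAMP and cGMP, had its peak at 2 h. Its log2 level was 8.82, 8.93, 8.71 and 8.78 on DMSO. It was 8.88, 10.17, 9.03 and 9.24 with exendin-4, 8.93, 10.11, 9.23 and 9.19 with both agents, and 8.82, 9.48, 9.10 and 9.31 with BayK8644. At 2 h the arrays with exendin-4 lay above both arrays without it. From 2 h on, DMSO was the lowest array at each time, and at 24 h the other 3 treatments lay between 9.19 and 9.31. The exendin-4 difference was 0.93 ± 0.17 at 2 h (1.91-fold, the 11th largest rise of 10610) and between 0.08 and 0.22 at the other times. The value of 0.17 at 24 h became -0.11 without the DMSO or exendin-4 array of that time and 0.45 without the BayK8644 or combination array. Against a single array the size at 2 h was 1.24 over DMSO and 0.62 over BayK8644.

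Sik1, the kinase gene, could not be measured on these arrays. Its probe set with the higher mean stayed between 3.03 and 3.23 on all 16 arrays, a range of 0.19, and its other probe set between 2.60 and 2.70. These values lie at the floor of the method, where GCRMA compresses differences, and a change of Sik1 below the detection level could not have been seen. The related kinases could be read. Sik2 had an exendin-4 difference of 0.41 ± 0.10 at 2 h, 0.31 ± 0.10 at 6 h and 0.49 ± 0.10 at 24 h, none of which passed (limma, adjusted p = 0.507, 0.697 and 0.746). Sik3 had 0.28 ± 0.09 at 2 h (adjusted p = 0.777).

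Ppargc1a lay at the floor of the method on most arrays and left it at 2 h with exendin-4. Its log2 level was 3.67, 3.42, 3.57 and 3.74 on DMSO and 3.66, 3.94, 3.83 and 3.69 on BayK8644, under the filter level on all 8 arrays. With exendin-4 it was 3.60, 5.76, 3.60 and 3.58, so that the array of 2 h alone left the floor. With both agents it was 3.75, 5.54, 4.16 and 4.29, and the arrays of 2, 6 and 24 h were above the filter level. Ppargc1a was thus above that level on 4 of 16 arrays, all with exendin-4, and it passed the filter only through them.

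The exendin-4 difference of Ppargc1a was 1.97 ± 0.22 at 2 h (3.92-fold), the second largest of 10610 genes, and 0.01 ± 0.22, 0.18 ± 0.22 and 0.22 ± 0.22 at 0.5, 6 and 24 h. Since the lower side lies at the floor, the fold is set in part by that floor. With 16 added to each intensity before the logarithm the difference was 1.19, below the 1.24 of Crem under the same setting, so the order of these genes by size depends on the floor. Without the DMSO array of 2 h it was 1.60 and without the BayK8644 array of 2 h it was 2.34. At 24 h the combination stood 0.60 above BayK8644, while exendin-4 alone stood at -0.16 against DMSO.

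**Figure D2:**
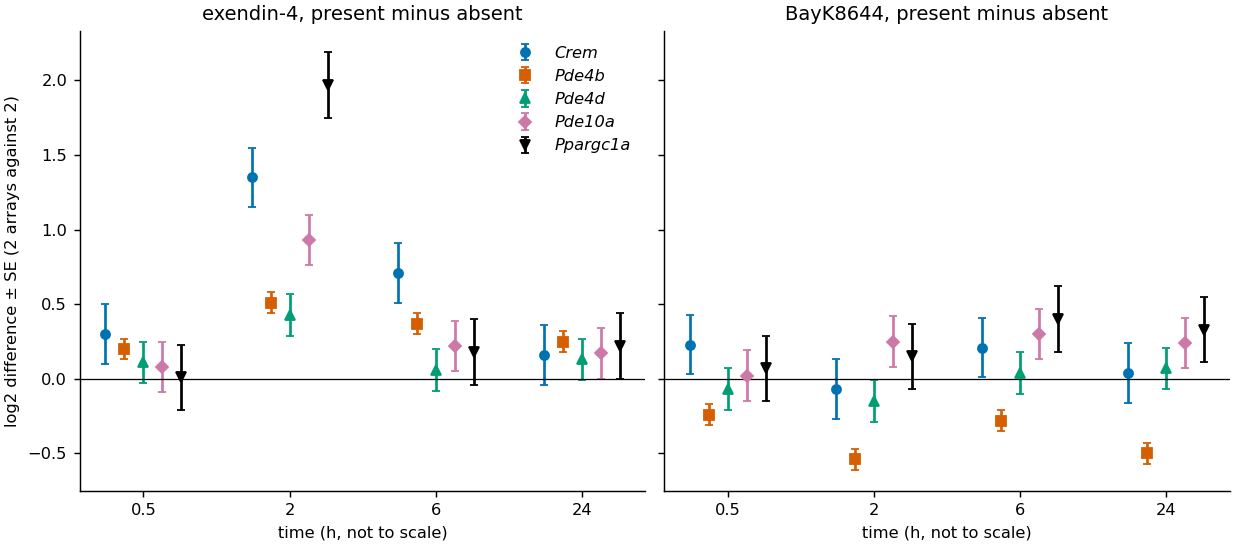
Log2 difference between the 2 arrays with an agent and the 2 without it (y axis, points with SE) for the 5 genes past the filter at each time (x axis), exendin-4 on the left and BayK8644 on the right. The exendin-4 differences were largest at 2 h, from 0.43 for Pde4d to 1.97 for Ppargc1a, and Pde4b is the one gene below 0 with BayK8644 at all 4 times.

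Few genes passed the threshold of an adjusted p of 0.05 (limma, Benjamini-Hochberg) for exendin-4 at a single time. They numbered 1 of 10610 at 0.5 h (0.00943% rose), 2 at 2 h (0.0189% rose), 0 at 6 h and 0 at 24 h, with 200, 589, 739 and 627 genes at an unadjusted p under 0.05. Ppargc1a was 1 of the 2 genes at 2 h, and the other was the orphan nuclear receptor gene Nr4a1. Crem, Pde4b, Pde4d and Pde10a were not among the called genes at any time. Ppargc1a was chosen from these values, and nothing is read from its call, which was lost without any 1 array of 0.5, 2 or 6 h. The count of 2 dropped to 1 without any 1 array of 0.5 h and to 0 without any 1 array of 2 or 6 h.

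BayK8644 was not named in the choice of the members, and its columns of the fit are orthogonal to those of exendin-4, so the members were tested for it. The choice was still made with earlier results of these arrays known, so the calls and counts below are not independent evidence. Pde4b fell with BayK8644 at 2 h by 0.54 ± 0.07 on the log2 scale (SE, 1.45-fold, limma adjusted p = 0.00751) and at 24 h by 0.50 ± 0.07 (1.42-fold, adjusted p = 0.00659). At 0.5 and 6 h the differences were -0.24 ± 0.07 and -0.28 ± 0.07 (adjusted p = 1 and 0.098). Pde4b was lower with BayK8644 in 8 of 8 pairs of arrays that differed only in that agent. Of all genes, 0.481% fell with BayK8644 at 2 h and 2.12% at 24 h (1.63% and 5.11% in either direction), against 1 of the 5 members at each of these times. The call at 2 h was lost without any 1 array of 2 h (adjusted p up to 0.146, with differences between -0.55 and -0.53). The call at 24 h was lost when either array with exendin-4 at 24 h was left out (adjusted p up to 0.0525). At 0.5 and 6 h, 0 of 5 members passed, where 0.217% and 2.48% of all genes did (0.773% fell at 6 h). The 5 include Ppargc1a, which passed the filter only through arrays with exendin-4.

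A marker of another islet cell type also moved with BayK8644 at 24 h. Sst, the somatostatin gene of delta cells and a known CREB target, rose by 2.36 ± 0.18 (limma adjusted p = 0.000218), within a range of 5.09 to 7.61 over all arrays. Over all arrays Gcg lay between 9.08 and 10.06 and Irx2 between 4.19 and 4.92. The part of these markers in the Pde4b result was not tested.

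The other 4 members did not pass for BayK8644 at any time. Pde10a had differences of 0.02, 0.25, 0.30 and 0.24 at 0.5, 2, 6 and 24 h, with 95% intervals of -0.13 to 0.62 at 2 h and -0.08 to 0.68 at 6 h (adjusted p = 0.65 and 0.456). On the arrays without exendin-4 Pde10a stood 0.56 above DMSO at 2 h, 0.40 at 6 h and 0.52 at 24 h, while on those with exendin-4 the BayK8644 difference was -0.06, 0.20 and -0.04. Crem had a difference of -0.07 at 2 h (interval -0.53 to 0.40, adjusted p = 0.955). Ppargc1a had 0.40 ± 0.22 at 6 h (adjusted p = 0.444). It entered the fit only through arrays with exendin-4 and lay under the filter level on all arrays without it. Nothing is therefore read from its BayK8644 tests. Pde4d had differences between -0.15 and 0.07. The Pde4d intervals at the 4 times ran from -0.47 at the lowest to 0.39 at the highest, which leaves out changes as large as the 0.50 and 0.54 by which Pde4b fell. The Pde10a intervals above leave out a fall of that size but not a rise.

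Whether exendin-4 acted differently in the presence of BayK8644 was tested over the 4 times, which stood in for replicates. This fit held the effect of each agent constant over time. A change of any effect with time thus counted as error, so a result that did not pass does not show that an interaction was absent. The interaction was 0.15 ± 0.30 for Crem, 0.04 ± 0.11 for Pde4b, 0.05 ± 0.14 for Pde4d, -0.33 ± 0.22 for Pde10a and 0.12 ± 0.47 for Ppargc1a (SE, limma adjusted p = 0.917, 0.953, 0.941, 0.774 and 0.962). The 95% interval was -0.21 to 0.28 for Pde4b and -0.89 to 1.13 for Ppargc1a. The exendin-4 difference of Ppargc1a ran from 0.01 at 0.5 h to 1.97 at 2 h. Ppargc1a lay under the filter level on all arrays without exendin-4 and entered the fit only through arrays with it. Nothing is therefore read from its interaction test. Over all 10610 genes 0 passed with limma (0% called), and 710 had an unadjusted p under 0.05.

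At single times the interaction is a value from 4 arrays with no test, and the fit by time took it as error. At 2 h it was -0.62 for Crem, -0.33 for Pde4d, -0.62 for Pde10a and -0.75 for Ppargc1a, and 0.01 for Pde4b. The exendin-4 difference at 2 h was thus smaller with BayK8644 than without it in 4 of the 5 genes, which share the same 4 arrays. The DMSO array of 2 h was the lowest of all 16 for Crem and for Ppargc1a. For Ppargc1a, DMSO (3.42) and BayK8644 (3.94) were both under the filter level at 2 h, so the floor sets its -0.75 in part. At 0.5 h the interaction was 0.76 for Crem and 0.52 for Pde4d, with the combination arrays of both genes above all other arrays of that time. For Ppargc1a it was 0.76 at 24 h.

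**Figure D3:**
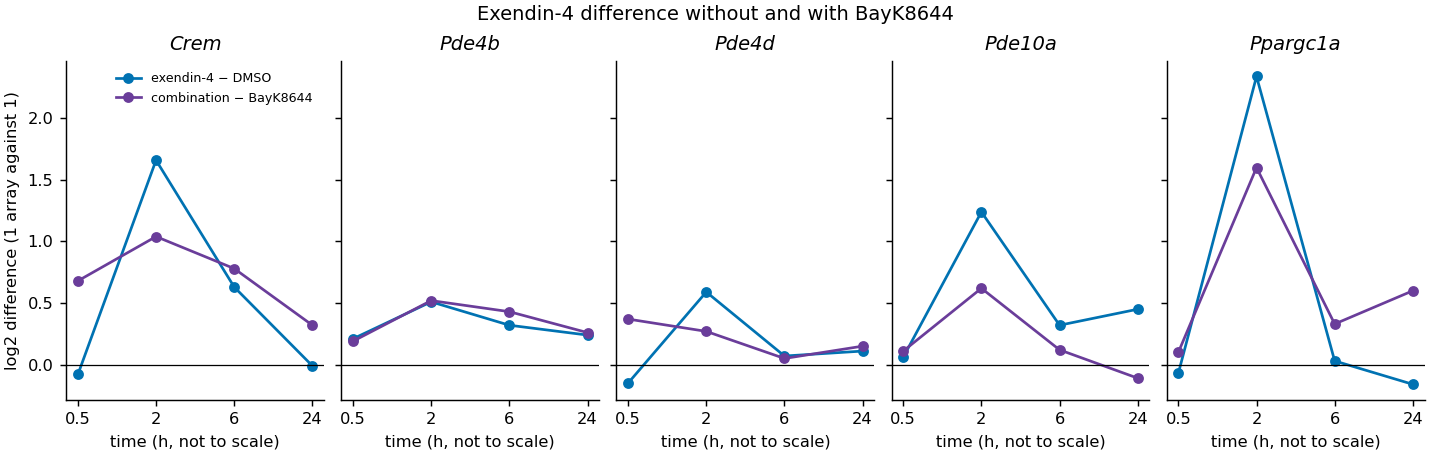
Log2 difference that exendin-4 made on 1 array against 1 (y axis) at each time (x axis), without BayK8644 in blue and with it in purple, for the 5 genes past the filter. The lines of Pde4b lie within 0.12 of each other, and at 2 h the blue point is higher in the other 4 genes, by 0.33 to 0.75. The 0.75 is that of Ppargc1a, whose arrays without exendin-4 lay under the filter level.

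Other probe sets of the same genes were read too. The 6 genes had 24 probe sets, of which 11 passed the filter, and 6 of these 11 were additional to those used above. For Crem a further probe set gave an exendin-4 difference of 1.63 at 2 h and 0.75 at 6 h, and it differed by -0.65 with BayK8644 at 2 h. For Pde4b the further probe set gave exendin-4 differences of 0.49, 0.56 and 0.33 at 2, 6 and 24 h but -0.12 at 0.5 h. With BayK8644 it gave -0.38, -0.78, -0.50 and -0.32 at 0.5, 2, 6 and 24 h, which passed at 2 h (limma adjusted p = 0.0344) and not at 24 h (adjusted p = 0.189).

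For Pde10a the further probe sets gave exendin-4 differences of 0.66 and 1.40 at 2 h, and of -0.23 and -0.32 at 0.5 h. For Ppargc1a they gave 1.39 and 2.63 at 2 h, and 1.01 at 6 h in the second of them, which reached log2 5.44 from a lowest value of 2.56. These 2 Ppargc1a probe sets reached the filter level on 6 and 3 arrays and passed through their high arrays, so nothing is read from the signs at 2 h. Additional probe sets read the same RNA on the same arrays and are no further replicates. The 13 probe sets under the filter, 2 of them of Sik1, had exendin-4 differences from -0.38 to 0.63 at 2 h.

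**Figure D4:**
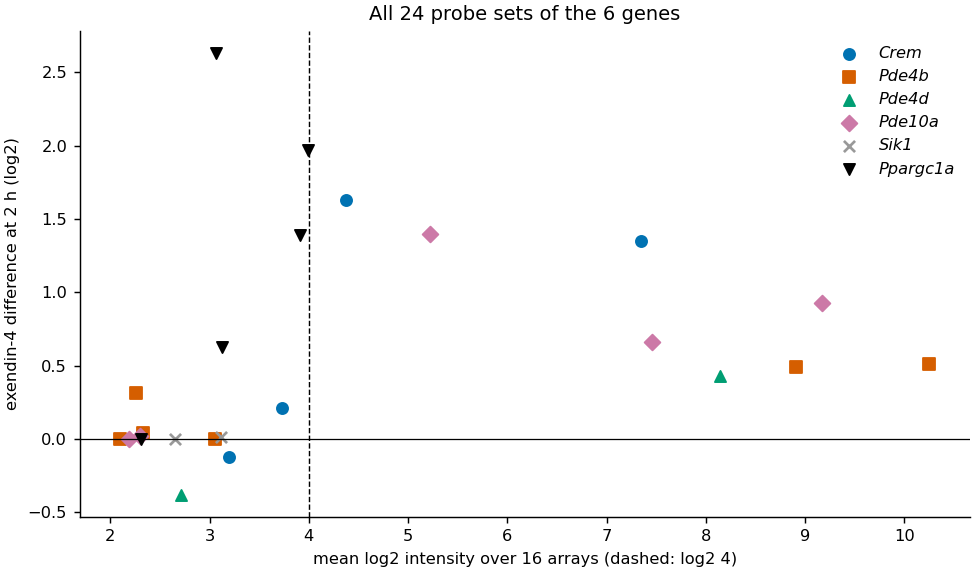
Exendin-4 difference at 2 h (y axis, log2) against the mean log2 intensity over 16 arrays (x axis) for all 24 probe sets of the 6 genes. The 11 that passed the filter lie between 0.43 and 2.63, where the 3 of Ppargc1a passed through their high arrays, so the filter itself favours a high value, and both Sik1 probe sets lie near 0 at means of 3.12 and 2.65.

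The members did not share 1 pattern over the 16 arrays. Pearson correlations of the log2 level, given as a description without a test since the arrays share treatments and times, were 0.90 between Pde10a and Ppargc1a, 0.84 between Crem and Ppargc1a and 0.73 between Crem and Pde10a. Pde4d had 0.70 with Crem and with Ppargc1a, and 0.63 with Pde10a. The members were chosen as cAMP-induced genes from earlier results of these arrays, so likeness among them is in part built in. Ppargc1a lay under the filter level on 12 of the 16 arrays. Its correlations lean on the 2 h arrays with exendin-4, at 5.76 and 5.54. Pde4b had lower values than the other pairs, with -0.07 to Pde10a, 0.11 to Ppargc1a, 0.35 to Pde4d and 0.41 to Crem.

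By the same measure, the 3 genes of 10610 most like Crem were Lrrc10b (0.846), Ppargc1a (0.840) and Rsl24d1 (0.824). Those most like Ppargc1a were Pde10a (0.903), Ostm1 (0.860) and Crem (0.840), and those most like Pde10a were Ppargc1a (0.903), Sik3 (0.844) and Armcx4 (0.823). The limits given above for the choice of members and for Ppargc1a hold for these values too. Pde4b was most like Il1r1 (0.870), an interleukin receptor gene, Gadd45a (0.857), a growth arrest gene, and Ribc1 (0.837). Pde4d was most like Entpd3 (0.819), Maco1 (0.783) and Lrrc17 (0.759).

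Among the other phosphodiesterase genes, 7 of 15 were measured, and with exendin-4 0 of 7 passed at any time. Their median difference at 2 h was 0.09, beside 0.02 over all genes. The calcium-activated enzyme gene Pde1c had the largest, at 0.40 ± 0.08 at 2 h (limma adjusted p = 0.303) and 0.39 ± 0.08 at 6 h (adjusted p = 0.688). With BayK8644 at 24 h, where 2.99% of all genes rose and 2.12% fell, 1 of the 7 rose and 2 fell, with a median of -0.31 beside 0.01 over all genes. Pde1c fell by 0.40 ± 0.08 (limma adjusted p = 0.026) and Pde3b, the gene of an insulin-regulated enzyme that cleaves cAMP, by 0.31 ± 0.06 (adjusted p = 0.0252). Pde2a, whose enzyme is stimulated by cGMP, rose by 0.54 ± 0.13 (adjusted p = 0.0455). Among the 16 fits that left out 1 array each, the call was lost in 10 for Pde1c, 6 for Pde3b and 14 for Pde2a (adjusted p up to 0.229, 0.17 and 0.318).

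**Figure D5:**
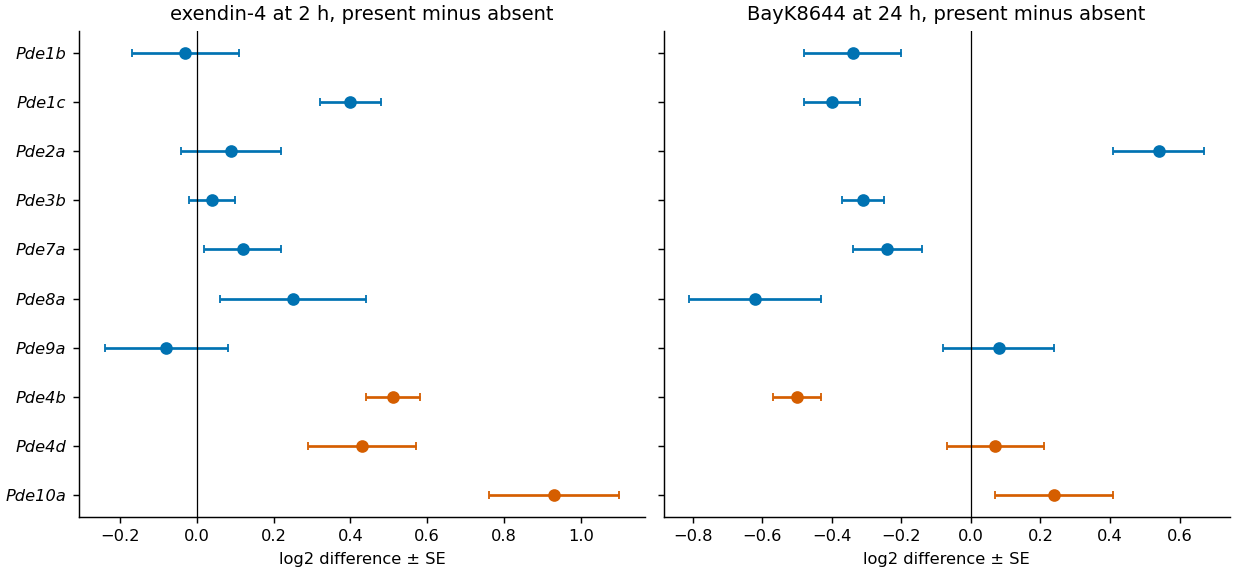
Log2 difference with SE (x axis) for the 10 measured phosphodiesterase genes (y axis), exendin-4 at 2 h on the left and BayK8644 at 24 h on the right, with the members in orange and the others in blue. With exendin-4 Pde10a, Pde4b and Pde4d, which were chosen for such values, lie at 0.93, 0.51 and 0.43 ± 0.14, with Pde1c at 0.40 ± 0.08 not apart from Pde4d, and Pde4b lies at -0.50 with BayK8644.

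Upstream of the members, 0 of 5 measured adenylyl cyclase genes, 0 of 7 receptor and G protein genes, 0 of 18 genes of protein kinase A, its anchors and Epac and 0 of 9 other genes of the CREB family and its coactivators passed for exendin-4 at any time, where 0.00943%, 0.0189%, 0% and 0% of all genes did at 0.5, 2, 6 and 24 h. Counts of 0 in this and the other lists equal that background, and nothing about the lists is read from them. With BayK8644 at 24 h Adcy6 fell by 0.40 ± 0.09 and Adcy2 rose by 0.54 ± 0.12 (limma adjusted p = 0.0357 and 0.0368), both genes of enzymes that make cAMP, where 5.11% of all genes passed. These calls were lost in 14 and 16 of the 16 fits without 1 array (adjusted p up to 0.282 and 0.187). Prkar2b, a regulatory subunit of protein kinase A, fell by 0.35 ± 0.06 at 6 h and at 24 h (adjusted p = 0.0281 and 0.0189, lost in 8 and 6 of 16 fits).

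Of 17 measured SIK-related kinase and class IIa histone deacetylase genes, 0 passed for exendin-4, beside at most 0.0189% of all genes at a time. With BayK8644, for which 2.48% of all genes passed at 6 h and 5.11% at 24 h, the kinase gene Nuak2 rose by 0.59 ± 0.12 at 6 h (limma adjusted p = 0.0403), and at 24 h Hdac5 rose by 0.60 ± 0.12 and the kinase gene Mark1 fell by 0.59 ± 0.09 (adjusted p = 0.0216 and 0.00989). Without 1 array these calls were lost in 12, 6 and 2 of 16 fits.

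Of 24 other measured CREB and cAMP target genes, Nr4a1 alone passed for exendin-4. It rose by 2.12 ± 0.08 at 0.5 h (limma adjusted p = 8.61e-06) and 0.95 ± 0.08 at 2 h (adjusted p = 0.0102), and the second of these calls was lost in 8 of 16 fits without 1 array. With BayK8644, 8, 9, 9 and 10 of the 24 rose at 0.5, 2, 6 and 24 h and 0 fell, where 0.217%, 1.15%, 1.71% and 2.99% of all genes rose. The list was chosen with earlier results of these data known, so its count is not independent evidence. Among those that rose were the early response genes Fosb (3.40, with a lowest level of 2.75 under the filter, so that the floor sets its size in part), Egr1 (2.87), Fos (2.78) and Nr4a1 (2.57) at 0.5 h and the neuropeptide gene Tac1 (2.68) at 6 h. Without 1 array the calls of Fosb at 0.5 h and Tac1 at 6 h were lost in 2 and 4 of 16 fits. Those of Egr1, Fos and Nr4a1 at 0.5 h were lost in 0. Over all BayK8644 calls of this list, losses ran from 0 fits (as for Gem at 0.5 h) to 12 (as for Nfil3 at 2 and 6 h). Median differences of this list were 0.31 and 0.10 with exendin-4 at 0.5 and 2 h and 0.55 and 0.49 with BayK8644. Crem, Pde4d and Pde10a were not among the genes that passed with BayK8644, and nothing is read from the BayK8644 tests of Ppargc1a.

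Among 20 measured relatives, partners and targets of PGC-1 alpha, 0 passed for exendin-4 at any time, beside at most 0.0189% of all genes, with a median of -0.03 at 2 h beside 0.02 over all genes. Ppargc1b, the closest relative of Ppargc1a, had -0.10 ± 0.15 at 2 h, and Pprc1 had 0.08 ± 0.08 (limma adjusted p = 0.963 and 0.937). With BayK8644 at 2 h Hnf4a, the gene of a nuclear receptor that PGC-1 alpha can coactivate, rose by 0.48 ± 0.07 (adjusted p = 0.0154, lost in 8 of 16 fits without 1 array).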

How the data were processed

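Intensities were deposited on a linear scale, and the authors made them with GCRMA, per the submitters' processing notes; its version was not given in the sources used here. They were converted to log2 without a pseudocount or renormalization. Median intensity lay between 10.5 and 11.6 per array, and the number of arrays limits the precision. The platform annotation gave 34958 of 45101 probe sets 1 symbol. Those at log2 4 or more on at least 2 arrays were kept, and the highest mean stood for the gene.

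Linear modelling used limma 3.58.1 under R 4.3.3, with an intensity trend in eBayes. The fit by time had a level, an exendin-4 effect and a BayK8644 effect at each time (4 residual degrees of freedom). Its error came from the single-time interactions of the agents, since no treatment and time had a replicate. This error was shared by all times, although arrays of 0.5 h held 12.1% and those of 24 h 39.4% of the residual sum of squares. The interaction fit had time and treatment (9 residual degrees of freedom). P-values are Benjamini-Hochberg adjusted over 10610 genes. The fit by time was tested on simulated data with changes planted in the exendin-4 arrays of 2 h. The interaction fit was run on these data too, but no interaction was planted and its result was not checked.

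The members and lists were chosen with earlier results of these data known. The named genes are the members, the 3 genes most correlated with each, and list genes past the threshold. Promoters came from RefSeq tables; Crem and Sik1 were not analysed there. Ins1 and Mafa were not analysed here.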

Additional observations from a re-analysis of the deposited data

Results flagged for a closer look

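In 20 groups of 4 arrays (the 4 times of a treatment, for 5 genes), 2 held an array whose gap to its nearest neighbour exceeded Dixon's 95% critical share of the range; chance flags about 1 in 20 such groups, and the arrays of a group differ in time. Ppargc1a with exendin-4 stood at 5.76 at 2 h, where the next array was at 3.60. Ppargc1a was chosen from these values, and its other arrays with exendin-4 alone lay under the filter level. Nothing is therefore read from this flag. Pde4d with both agents stood at 8.03 at 6 h, where the next array was at 8.28.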

How the results depend on the processing

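Counts of called genes moved with single arrays. Leaving out each array in turn gave 1 to 2 genes for exendin-4 at 0.5 h, 0 to 2 at 2 h, and 0 at 6 and 24 h in each of the 16 fits. For BayK8644 it gave 6 to 24 genes at 0.5 h (23 with all arrays), 19 to 242 at 2 h (173), 30 to 412 at 6 h (263) and 116 to 1467 at 24 h (542). Without the filter on dim probe sets, exendin-4 called 3 genes at 0.5 h and 2 at 24 h, and BayK8644 171 at 6 h. Without the intensity trend, exendin-4 called 0 genes at 2 h, and BayK8644 143 at 6 h and 321 at 24 h. With all probe sets tested, exendin-4 called 0 at 2 h. The causes were not tested. The interaction called 0 genes in every setting run. Of the members' values, 991 comparisons with an alternative kept their side of the threshold or moved by less than the residual SD. Of the rest, 7 lost a call, 51 moved further and 0 called values changed sign. The 7 were calls of Pde4b with BayK8644. Exendin-4 values of the members were scored by size only, without regard to calls. The exendin-4 call of Ppargc1a at 2 h, lost in 12 of 16 fits without 1 array, is therefore not among the 7. A filter at log2 6 and a further quantile normalization moved no count by over 1.5 times, but at log2 6 Ppargc1a was not tested, so the 2 genes called there for exendin-4 at 2 h are not the same 2. Arrays were matched by time in each fit, and no fit paired them by replicate number, since the labels give none. The signal over background limits Sik1 and Ppargc1a most.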
